A study of Homo sapiens with 4 samples.

Results

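HNRNPU, EFCAB2 and SMYD3 are protein-coding genes that lie within 1.66 Mb of each other near the end of the long arm of human chromosome 1. Their RNAs were followed in a GRID-seq table, an assay that ties an RNA to the chromatin beside it inside fixed nuclei, so that each entry (a connection) pairs an RNA with an active enhancer or promoter. The members were all rows whose RNA symbol was HNRNPU, EFCAB2 or SMYD3, and HNRNPU and EFCAB2 were selected on their numbers of connections in the 2 genotypes. They make up 3 of 2637 RNAs, with 458 of 115357 connections and 355 of 33948 elements. The cells were K562, a leukaemia line with the BCR-ABL1 fusion, grown in RPMI with fetal bovine serum and carrying RUNX1 R320* (2 libraries) or wild-type RUNX1 (WT, 2 libraries). R320* puts a stop codon into the C-terminal part of RUNX1, a transcription factor of blood development. Both genotypes had the same fixation, 2 mM of the crosslinker DSG for 45 minutes and 3% formaldehyde for 10 minutes. The labels do not say whether the mutant cells were 1 clone or the libraries separate cultures.

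The authors pooled the libraries into 1 score per connection and genotype, so the values have no replicate spread and no difference below has a test. Every listed score is at least 1.2 and a score of 0 means "not listed", never a measured zero. Whether the score is on a log scale and the sequencing depth are unknown. R320* listed 84992 connections and WT 82454, with median scores of 1.73 and 1.71. RUNX1 RNA had 30 connections in R320* and 16 in WT, which does not check the genotype, since the change is a stop codon and no RNA level was measured. Of the erythroid and K562 markers, 3 of 7 were listed as RNAs (HBG2, HBE1 and TFRC), against 0 of 7 markers of other cell types.

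HNRNPU encodes an abundant nuclear protein, also called scaffold attachment factor A, that binds RNA and the nuclear matrix and takes part in chromatin organisation. EFCAB2, named DRC8 in RefSeq, encodes an EF-hand protein of the dynein regulatory complex of motile cilia. SMYD3 encodes a lysine methyltransferase with a SET and a MYND domain that is known from its high expression in tumours. An RNA that is still being made stays at its gene, so most RNA contacts in assays of this kind lie close by on the same chromosome (cis), and those on another chromosome are called trans.

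Per RefSeq (GRCh38.p14), HNRNPU (ENSG00000153187.20) spans 14.2 kb of chromosome 1, from 244850297 to 244864543. EFCAB2 (ENSG00000203666.12) spans 156 kb, from 244969682 to 245125229, and SMYD3 (ENSG00000185420.19) 758 kb, from 245749347 to 246507279. KIF26B, a kinesin gene, lies between EFCAB2 and SMYD3. The promoters below are shown because elements over several of them were met by all 3 RNAs. They are the 250 bases before each start in RefSeq, 5′ to 3′ on the gene's strand, with the GC box letters GGGCGG, in either orientation, in capitals.
HNRNPU promoter, chr1:244864544-244864793, minus strand: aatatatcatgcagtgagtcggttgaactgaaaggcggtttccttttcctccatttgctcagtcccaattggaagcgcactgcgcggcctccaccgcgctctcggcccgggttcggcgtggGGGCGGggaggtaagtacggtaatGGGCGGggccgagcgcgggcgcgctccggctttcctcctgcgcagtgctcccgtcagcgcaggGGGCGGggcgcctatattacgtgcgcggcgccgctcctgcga
EFCAB2 promoter, chr1:244969432-244969681, plus strand: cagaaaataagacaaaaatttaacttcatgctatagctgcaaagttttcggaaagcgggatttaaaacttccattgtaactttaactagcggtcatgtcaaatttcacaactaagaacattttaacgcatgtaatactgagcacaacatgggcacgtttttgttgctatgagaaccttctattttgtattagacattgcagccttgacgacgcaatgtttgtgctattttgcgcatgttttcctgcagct
SMYD3 promoter, outer start, chr1:246507280-246507529, minus strand: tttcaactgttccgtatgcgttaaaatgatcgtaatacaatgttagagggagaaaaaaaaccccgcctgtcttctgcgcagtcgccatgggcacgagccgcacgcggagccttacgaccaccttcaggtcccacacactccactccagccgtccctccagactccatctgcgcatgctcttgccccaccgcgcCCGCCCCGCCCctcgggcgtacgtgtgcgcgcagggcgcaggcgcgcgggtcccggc
SMYD3 promoter, inner start, chr1:245988552-245988801, minus strand: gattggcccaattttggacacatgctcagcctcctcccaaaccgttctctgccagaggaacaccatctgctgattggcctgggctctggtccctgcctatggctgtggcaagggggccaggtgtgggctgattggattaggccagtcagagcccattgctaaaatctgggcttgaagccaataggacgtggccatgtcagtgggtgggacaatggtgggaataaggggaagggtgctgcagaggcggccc
BCR promoter, chr22:23180259-23180508, plus strand: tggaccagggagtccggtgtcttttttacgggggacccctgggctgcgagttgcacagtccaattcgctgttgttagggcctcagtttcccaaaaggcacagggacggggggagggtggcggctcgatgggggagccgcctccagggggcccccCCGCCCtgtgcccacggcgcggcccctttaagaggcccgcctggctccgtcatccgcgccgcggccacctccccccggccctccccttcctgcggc
The HNRNPU window lies in a listed promoter element (244859126 to 244866764), as does the EFCAB2 window (244968291 to 244972586). The inner SMYD3 start lies in an element typed as an enhancer (245984687 to 245991718). These elements met all 3 RNAs in both genotypes, while 0 listed elements covered the outer SMYD3 start. The BCR window, in a promoter element on chromosome 22 (23178404 to 23181734), is shown because only SMYD3 of the 3 RNAs met it. GGGCGG was found 3 times at HNRNPU, 0 times at EFCAB2 (3 times before a further RefSeq start of it, 244970140 to 244970389), 2 overlapping times at the outer and 0 times at the inner SMYD3 start, and 1 time at BCR, against 42.6% of 35116 RefSeq promoter windows with at least 1 match. The RUNX letters TGTGGT (in 11% of windows) and the GATA letters AGATAA (in 9.17%) had 0 matches on either strand in these 5 windows.

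HNRNPU RNA had 103 connections in R320* and 44 in WT, and EFCAB2 RNA 73 and 34. SMYD3 RNA had 176 in R320* and 174 in WT. The numbers of HNRNPU and EFCAB2 chose these RNAs, so they are a description only. At least 2-fold more connections in R320* was seen in 0.619% of the 1293 RNAs with a mean of 25 or more connections and an entry in both genotypes. The log2 ratio of R320* over WT was 1.23 for HNRNPU (95% exact binomial interval 0.70 to 1.77), 1.10 for EFCAB2 (0.50 to 1.73) and 0.02 for SMYD3 (-0.29 to 0.33). The intervals cover counting error alone and are too narrow, because neighbouring elements are not independent. The median over the 1293 RNAs was 0.08. With elements merged within 1 Mb the ratios were 0.85 for HNRNPU and 0.68 for EFCAB2, both under 2-fold.

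**Figure D1:**
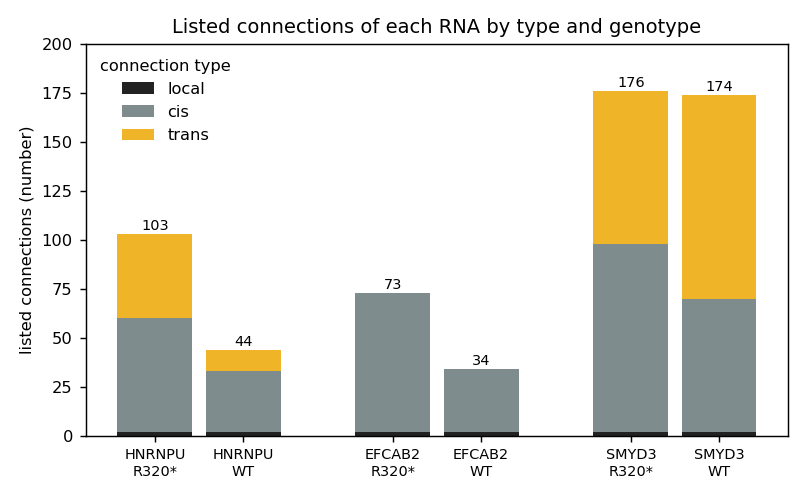
Number of listed connections (y axis) of HNRNPU, EFCAB2 and SMYD3 RNA in R320* and in WT, stacked by type: local (at the gene), cis (elsewhere on chromosome 1) and trans (another chromosome). HNRNPU had 103 and 44 and EFCAB2 73 and 34, while SMYD3 had 176 and 174 with fewer trans and more cis connections in R320*, as had the whole table.

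The 3 RNAs differed in which types made up these numbers. Each had 2 local connections, all listed in both genotypes, as were 81.1% of local connections in the whole table. HNRNPU had 58 cis connections in R320* and 31 in WT, and 43 and 11 trans. EFCAB2 had 71 cis connections in R320* and 32 in WT and 0 trans in either. SMYD3 had 96 and 68 cis and 78 and 104 trans, so its near equal totals hold differences of opposite direction. The whole table leaned the same way in both types. It had 68871 cis connections in R320* and 65051 in WT, and 11600 and 12800 trans. Counting the same chromosome alone, the log2 ratio of SMYD3 was 0.49 in place of 0.02.

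Few of the connections of HNRNPU were listed in both genotypes. Of its 72 cis connections, 41 were found in R320* alone, 14 in WT alone and 17 in both. EFCAB2 also had 72, with 40 in R320* alone, 1 in WT alone and 31 in both. For SMYD3 the corresponding numbers were 41, 13 and 55 of 109. Across all RNAs, 51.4% of cis connections were common to the genotypes, 26.4% were found in R320* alone and 22.1% in WT alone. The R320*-only share was 56.9% in HNRNPU, 55.6% in EFCAB2 and 37.6% in SMYD3, and the WT-only share of EFCAB2 was 1.39%. That background covers all distances. At 10 to 20 Mb the R320*-only share was 50.3% over all RNAs, with HNRNPU (84.2%) and EFCAB2 (67.7%) above it and SMYD3 (31.8%) below it. HNRNPU and EFCAB2 were chosen on their numbers in the genotypes, so their high R320*-only shares go with the choice and are a description only. Promoters made up 33.9% of the connections of HNRNPU, 32.4% in EFCAB2 and 33.1% in SMYD3, against 34.0% in the whole table.

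Contacts beside the genes were the same set in both genotypes. All 7 connections of HNRNPU within 0.1 Mb, all 7 of EFCAB2 and all 4 of SMYD3 were listed in both, against 80.4% of 17563 such connections in the table. HNRNPU RNA had its highest score at the promoter of COX20 (244832881 to 244838800), a cytochrome c oxidase assembly gene next to it, with 3.61 in R320* and 3.68 in WT. At its own enhancer element (244841420 to 244855108) it had 3.05 and 3.06, and at its own promoter 2.90 and 2.90. These were also nearly the same scores in both genotypes.

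EFCAB2 RNA had its highest score at an enhancer before its start (244963409 to 244965243), with 4.24 in R320* and 4.42 in WT. The antisense gene EFCAB2-AS1 (244965204 to 244970869) runs from the edge of this enhancer into the EFCAB2 promoter element, and the sources used here do not say whether reads were assigned by strand, so RNA of either gene cannot be told apart. At its own promoter it had 3.05 and 3.16, and at its inner enhancer (245040964 to 245045936) 2.79 and 2.97. At the HNRNPU promoter EFCAB2 RNA scored 3.13 and 3.09, close to its level at its own promoter. This element was met by many RNAs, 48 in R320* and 36 in WT, so a contact there is not particular to EFCAB2.

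SMYD3 RNA had low scores at its own gene, 1.62 in R320* and 1.46 in WT at an inner promoter (246106054 to 246111794) and 1.42 and 1.32 at the enhancer over the inner start. It met 2 of the 10 listed elements that overlap SMYD3, while the other 8 were listed with other RNAs only. EFCAB2 RNA met 2 of 4 over its gene and HNRNPU RNA 2 of 2. Having 2 local connections was common, in 1970 of the 2613 RNAs with any. At the COX20 promoter it scored 1.80 and 1.75, and at the enhancer before EFCAB2 2.03 and 1.87. At both of these neighbours it scored higher than inside its own gene, in either genotype. Both were met by many RNAs, COX20 by 51 in R320* and 35 in WT and the enhancer by 24 and 11. The inner SMYD3 promoter met 8 and 5 and the SMYD3 enhancer 6 and 6. Contacts at these neighbours are thus not particular to SMYD3.

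The 3 RNAs met 23 elements in common, all on chromosome 1. All 3 were listed at 21 of these in R320* and at 12 in WT, and the 12 were among the 21. With a minimum score of 1.5 in place of 1.2 the numbers were 6 and 6. The 12 comprised the 8 elements from COX20 to the inner enhancer of EFCAB2 that all 3 met, an enhancer and a promoter of the opsin gene OPN3 (3.36 and 3.33 Mb before EFCAB2), and the pair of SMYD3 elements. The 9 elements met by all 3 in R320* but not in WT lay at KCNK1 and AL357972.1 (4 elements, the farthest 11.3 Mb before EFCAB2), WDR64 and EXO1 (3 elements), ADSS and DESI2. Of the 9, EFCAB2 was not listed in WT at 4 and HNRNPU at 8. At the remaining pair, the promoter of TFB2M and an enhancer of CNST beyond SMYD3, EFCAB2 was listed in R320* only and HNRNPU in WT only. Other RNAs met all 23 elements too. In R320* these were as few as 3 at the TFB2M promoter and as many as 53 at the HNRNPU enhancer.

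EFCAB2 RNA led at the shared elements. At the 12 elements its median score was 2.75 in R320* and 2.93 in WT, against 2.28 and 2.08 for HNRNPU and 1.67 and 1.49 for SMYD3. EFCAB2 scored above SMYD3 at 12 of 12 in both genotypes and above HNRNPU at 11 of 12, with the COX20 promoter as the exception. Most of the 12 lie nearer to EFCAB2 than to SMYD3. Over all RNAs the median score in R320* was 2.22 within 0.1 Mb and 1.79 at 0.1 to 1 Mb. EFCAB2 also had the highest median over all its connections in R320*, 2.03 against 1.74 for HNRNPU and 1.58 for SMYD3. The part of distance was not tested. As shares of each RNA's own elements, HNRNPU and EFCAB2 had 30 in common in R320* (29.1% of HNRNPU and 41.1% of EFCAB2), and 19 in WT (43.2% and 55.9%). EFCAB2 and SMYD3 had 39 in R320* (53.4% and 22.2%) and 17 in WT (50.0% and 9.77%). HNRNPU and SMYD3 had 37 in R320* (35.9% and 21.0%) and 15 in WT (34.1% and 8.62%).

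All 3 RNAs had a large share of distant contacts along chromosome 1. Connections over 10 Mb from the gene made up 44 of the 74 same-chromosome connections of HNRNPU (59.5%), 33 of 74 of EFCAB2 (44.6%) and 71 of 111 of SMYD3 (64.0%). Among 1595 RNAs with at least 25 such connections these were ranks 4, 12 and 3, the median share was 0 and 904 RNAs had 0. The neighbours shared this in part. KIF26B had 73.1% (19 of 26), DESI2 38.7%, AHCTF1 26.9% and CNST 20.5%, while SDCCAG8 had 2.20% and ADSS, EXO1 and OPN3 had 0.

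By genotype, connections beyond 10 Mb were 37 of 60 in R320* and 10 of 33 in WT for HNRNPU. For EFCAB2 they were 32 of 73 and 10 of 34, and for SMYD3 58 of 98 and 45 of 70. Over all RNAs such connections made up 4.08% in R320* and 3.76% in WT. The R320*-only connections of HNRNPU had a median distance of 13.8 Mb and those of EFCAB2 of 10.2 Mb, and 34 of 41 and 23 of 40 lay past 10 Mb. Those in both genotypes had medians of 1.1 Mb for HNRNPU and 0.981 Mb for EFCAB2, but 11.1 Mb for SMYD3. The WT-only connections were distant too, with medians of 12.7 Mb for the 14 of HNRNPU and 14.7 Mb for the 13 of SMYD3. Of these, 7 and 13 lay past 10 Mb. EFCAB2 had 1 WT-only connection, at 17.9 Mb. Long distance was thus not particular to the R320*-only connections.

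The outermost contacts were single elements. In R320*, HNRNPU reached 228.8 Mb, to a promoter of SRARP (16007960 to 16008437) with a score of 1.54. In WT it reached 200.8 Mb, to an enhancer in SLC6A9 (44014617 to 44015211) with 1.72. EFCAB2 reached 213.1 Mb in R320* (AL136115.2, 31866154 to 31867582, score 1.30) and 18.02 Mb in WT (COQ8A, 226937632 to 226945586, 2.61). SMYD3 reached 44.7 Mb in R320* (KIF21B, 201012402 to 201018801, 1.203) and 19.2 Mb in WT (STUM, 226578971 to 226579636, 1.25). The distance that held 90% of connections was shorter, at 17.9 Mb in R320* and 29.3 Mb in WT for HNRNPU, 15.5 and 11.5 Mb for EFCAB2, and 17.6 and 17.6 Mb for SMYD3.

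**Figure D2:**
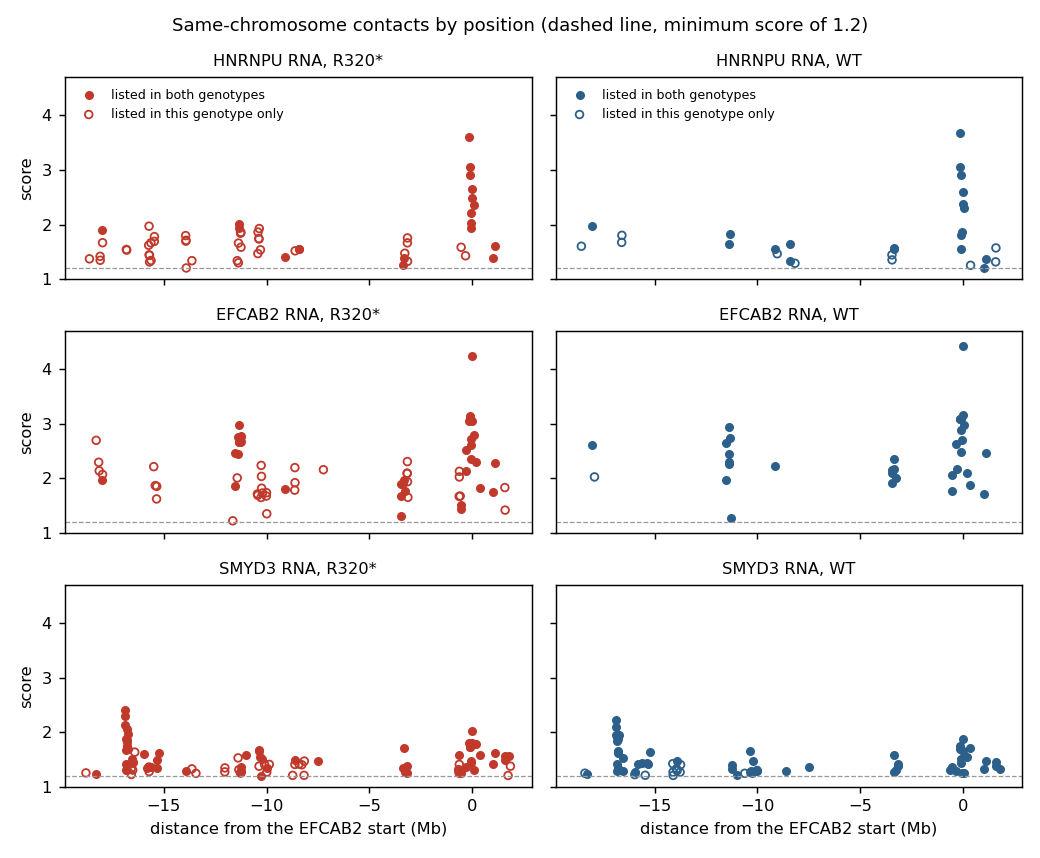
Score of the same-chromosome connections near the genes (y axis) by distance of the element from the EFCAB2 start (x axis, Mb, negative towards the centromere), for the 3 RNAs in R320* (left) and WT (right). Filled points are listed in both genotypes and open points in that genotype only. EFCAB2 has open points in R320* about 11.2 and 10 Mb before its start, and SMYD3 has its highest scores at ARF1, in the left part of each panel, with 2.40 in R320* and 2.22 in WT. Contacts farther out are not drawn.

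The distant contacts fell into a few stretches of chromosome 1, formed by merging the members' elements within 0.3 Mb. The stretches were drawn around contacts of the members, so only the genotypes and the other RNAs are set side by side. From MAP3K21 to SLC35F3 (233327713 to 233974090), around the potassium channel gene KCNK1, EFCAB2 met 13 of 17 listed elements in R320* and 8 in WT, and all 8 were among the 13. At the KCNK1 promoter (233611952 to 233616376) it scored 2.98 in R320* and 2.30 in WT. At 4 enhancers near AL357972.1 it scored 2.78, 2.74, 2.66 and 2.67 in R320*. In WT the first of these had 1.27 and the other 3 were not listed, although the last KCNK1 enhancer before them (233619982 to 233626616) had 2.66 in R320* and 2.74 in WT. HNRNPU met 8 elements in R320* and 2 in WT, with medians of 1.75 and 1.74. Other RNAs also had more connections there, 156 in R320* and 69 in WT, or 134 and 68 over RNAs of both genotypes.

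From AL355472.2 to AL732292.2 (234355426 to 235104755), EFCAB2 met 10 elements in R320* and 0 in WT, with a median score of 1.72. HNRNPU met 6 in R320* and 0 in WT, with a median of 1.74, and 3 of the 6 were at IRF2BP2, a corepressor gene. SMYD3 met 10 and 8, of which 6 were in both. Other RNAs had 384 connections there in R320* and 222 in WT. From AL137793.1 to LINC01682 (229002417 to 229755203), which holds the nuclear pore gene NUP133, HNRNPU met 9 elements in R320* and 0 in WT. EFCAB2 met 4 and 0 there and SMYD3 8 and 8, while other RNAs had 125 and 68 connections. In both stretches the members with 0 contacts in WT lay where other RNAs also had fewer.

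In other stretches the 3 RNAs did not go together. At FH, OPN3, WDR64 and EXO1 (241517778 to 241849996), EFCAB2 met 11 elements in R320* and 6 in WT, HNRNPU 6 and 4 and SMYD3 5 and 5, against 130 and 118 connections of other RNAs. At EDARADD, LGALS8 and MTR (236240614 to 236809136), SMYD3 met 7 in R320* and 1 in WT, EFCAB2 3 and 0 and HNRNPU 3 and 3, while other RNAs had fewer in R320*, with a ratio of R320* over WT of 0.733. At FAM89A and SPRTN (230855623 to 231535085), HNRNPU met 5 in R320* and 0 in WT, EFCAB2 0 and 0 and SMYD3 3 and 9, and other RNAs had 123 and 94.

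The strongest same-chromosome contacts of SMYD3 RNA lay from ARF1 to RNF187 (228081067 to 228558311), 17.2 Mb from its gene. It met 21 of 34 listed elements there in R320* and 15 in WT, and all 15 were among the 21. At an enhancer of ARF1, a GTPase gene of vesicle transport (228089628 to 228093205), it scored 2.40 in R320* and 2.22 in WT. At the ARF1 promoter (228081067 to 228086339) it scored 2.29 and 2.09, and at the promoter of C1orf35 2.12 and 1.95. Each of these was higher than its scores at the local elements of SMYD3. EFCAB2 met 0 elements in this stretch and HNRNPU 2 in each genotype, of which 0 were the same. Other RNAs had 170 connections there in R320* and 151 in WT, or 145 and 145 over RNAs of both genotypes.

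More broadly, the members' elements on chromosome 1 had more connections of other RNAs in R320*, including those that a member met in R320* only. At the 41 R320*-only elements of HNRNPU, other RNAs had 377 connections in R320* and 233 in WT. At the 40 of EFCAB2 they had 328 and 221, and at the 41 of SMYD3 263 and 190. Elements that were in both genotypes went the same way, with 284 and 197 for HNRNPU, 388 and 260 for EFCAB2 and 617 and 435 for SMYD3. So did those that a member met in WT only, with 69 in R320* and 62 in WT for the 14 of HNRNPU and 80 and 60 for the 13 of SMYD3. For these RNAs the direction was thus the same whichever genotype listed the member. The size was not, since for HNRNPU the difference was smallest at its WT-only elements. Over the whole of chromosome 1 other RNAs had 12539 connections in R320* and 11464 in WT, and over all chromosomes 84640 and 82202. The part of this regional difference in the members' numbers was not tested.

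Among connections that both genotypes list, EFCAB2 scores were mostly lower in R320*, although its number of connections was higher. Of its 34 WT connections 33 were listed in both, while its 40 R320*-only connections have no WT score. The comparison thus covers those that passed the minimum in WT, and is a description only. Of the 33 listed in both, 26 were lower and 7 higher in R320*, with a median difference (R320* minus WT) of -0.122 units (SD 0.388 over connections). Over all RNAs 21542 of 52089 were lower. At the COQ8A enhancer EFCAB2 had 1.97 in R320* and 2.61 in WT, at the promoter of FH, the fumarase gene (241517778 to 241520901), 1.31 and 1.92, and at the ADSS promoter (244449328 to 244453838) 1.52 and 2.06. The largest difference in the other direction was at AL357972.1, 2.78 and 1.27, the only EFCAB2 connection of the 33 that differed by at least 1 unit upwards, as did 0.0998% of 52089 connections in the table. The KCNK1 promoter and a KCNK1 enhancer (233604127 to 233608167) followed with differences of 0.678 and 0.393.

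HNRNPU and SMYD3 scores leaned the other way, as did those of the whole table. HNRNPU had a median difference of 0.0544 units (SD 0.209, 12 of 20 higher in R320*), and SMYD3 of 0.0846 (SD 0.317, 62 of 93 higher). The whole table had 0.0394 (SD 0.247, 30547 of 52089 higher), so the medians of HNRNPU and SMYD3 lie near it and that of EFCAB2 below it. For HNRNPU the largest differences upwards were at a pair of enhancers near BX323046.1 between HNRNPU and EFCAB2, 2.21 and 1.82 (244903901 to 244904265) and 1.93 and 1.55 (244896568 to 244898097). Those downwards were at the enhancer and the promoter of OPN3, 1.26 in R320* and 1.55 in WT, and 1.38 and 1.57, and at a BCR enhancer in trans.

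**Figure D3:**
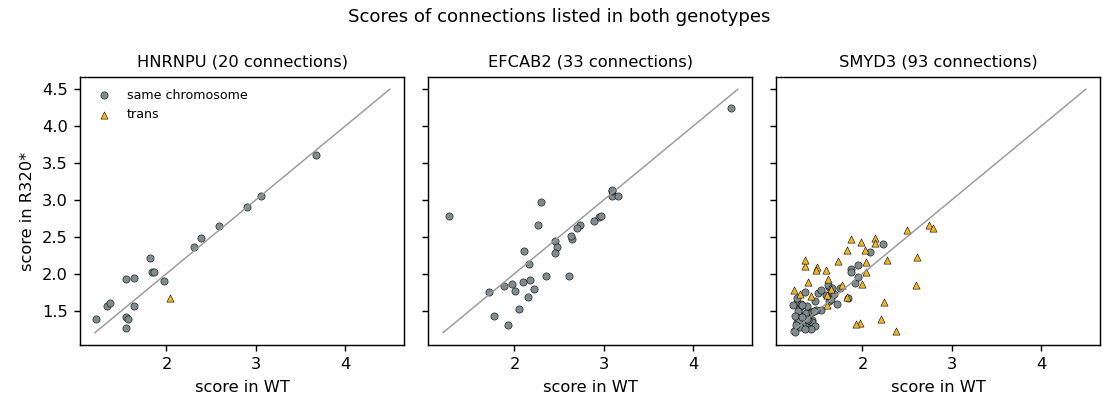
Score in R320* (y axis) against score in WT (x axis) for each connection listed in both genotypes, for HNRNPU (20), EFCAB2 (33) and SMYD3 (93). Circles are same-chromosome and triangles trans connections, and the line marks equal scores. Most EFCAB2 points (26 of 33) lie below the line, 1 point at AL357972.1 lies far above it, and the 36 SMYD3 triangles spread to both sides.

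HNRNPU RNA contacted other chromosomes almost entirely at different places in the genotypes. Of its 53 trans connections 42 (79.2%) were found in R320* alone, 10 (18.9%) in WT alone and 1 (1.89%) in both. Across all RNAs, 41.5% of trans connections were found in R320* alone, 47% in WT alone and 11.5% in both. The trans connections are part of the numbers that chose HNRNPU, so its R320*-only share is a description only. Merged within 1 Mb, the trans elements formed 17 loci on 9 chromosomes in R320* and 6 loci on 4 chromosomes in WT, with 1 locus in common, an enhancer in BCR on chromosome 22 (23210555 to 23227115). There HNRNPU scored 1.67 in R320* and 2.03 in WT.

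In R320*, HNRNPU met 3 enhancers in the beta-globin cluster on chromosome 11, with 2.32 at HBB, the adult beta-globin gene (5224318 to 5227186), 1.75 at HBD, the delta-globin gene, and 1.62 at AC104389.1. It met 6 elements at MIR17HG, the host gene of an oncogenic microRNA cluster, and GPC5 on chromosome 13 (91345455 to 91407164), with scores up to 2.34. On chromosome 2 it met 4 elements at TMEM185B and RALB, a RAS-like GTPase gene (120221001 to 120239811), with up to 2.48, 3 at and near KLF11 with up to 2.33, and a wide enhancer in NOSTRIN. On chromosome 22 it met 8 elements from AC006547.1 to PPM1F, among them DGCR8, a microRNA processing gene, with 2.07 at its promoter. The other R320* loci included ADARB1 and CU633906.2 on chromosome 21, ITPR1 on 3, ELL2 and GM2A on 5, HCG20 and CD2AP on 6, PTGDS on 9, and MAML2 on 11.

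In WT, HNRNPU met LAMTOR1, ANAPC15 and FOLR3 on chromosome 11 (72100128 to 72123787) with scores up to 2.24, and CRY2 and MAPK8IP1 on the same chromosome with up to 1.81. The remaining WT loci were DGKH on chromosome 13, GARS on 7 and an enhancer near XKR3 on 22, the last with 2.56. The median score of these trans contacts was 2.06 in R320* and 1.86 in WT, and some lay close to the minimum, such as 1.29 at a MIR17HG enhancer in R320* and 1.22 at the MAPK8IP1 promoter in WT. Unlike on chromosome 1, the 42 trans elements that HNRNPU met in R320* only were met by other RNAs at like numbers, 403 connections in R320* and 393 in WT.

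**Figure D4:**
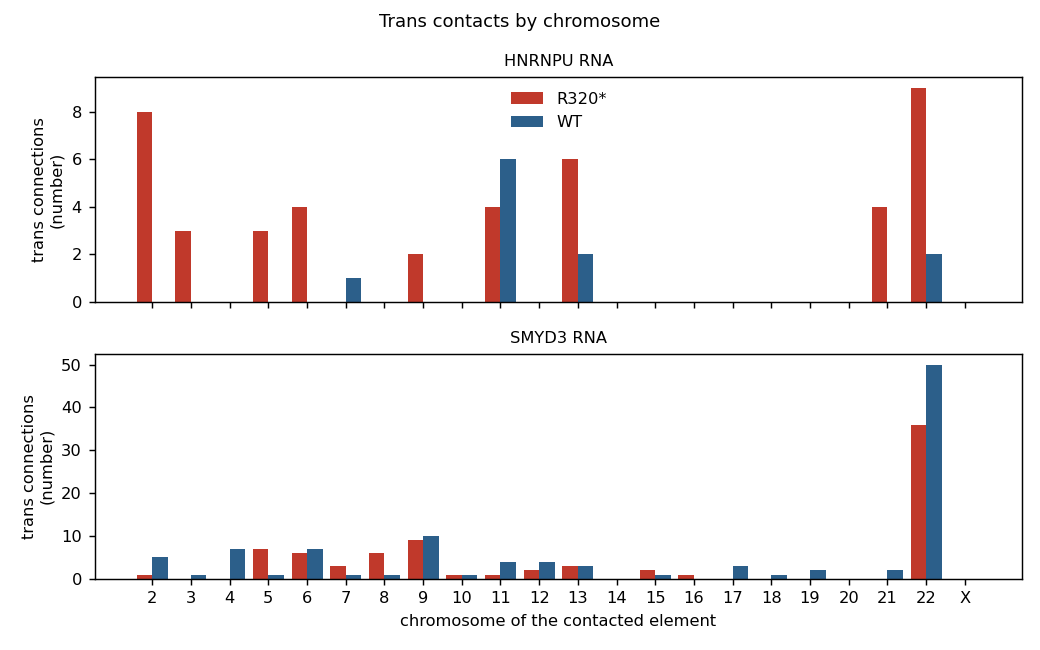
Number of trans connections (y axis) by chromosome of the element (x axis) for HNRNPU (top) and SMYD3 (bottom), in R320* and in WT. HNRNPU has most in R320* on chromosomes 22 (9), 2 (8) and 13 (6), and SMYD3 has 36 in R320* and 50 in WT on chromosome 22.

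SMYD3 RNA had 146 trans connections on 19 chromosomes, of which 36 were in both genotypes (24.7%), 42 in R320* only (28.8%) and 68 in WT only (46.6%). Across all RNAs these shares were 11.5%, 41.5% and 47%, so the WT-only share of SMYD3 was near that of the table. All 36 lay in 2 stretches, 30 on chromosome 22 and 6 on chromosome 9. The first ran from ESS2 to the BCR enhancer (19143274 to 23227115), where SMYD3 met 36 elements in R320* and 50 in WT. The second ran from ABL1 to NUP214 (130843738 to 131140377), with 6 and 9. BCR and ABL1 are the genes that the fusion of K562 joins.

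The stretches were drawn around SMYD3's own contacts, merged within 1 Mb, so their ends are a description. SMYD3 met 56 of the 183 listed elements of the first and 9 of the 13 of the second. The chromosome 22 stretch ended inside BCR (23180509 to 23318037), and the chromosome 9 stretch began inside ABL1 (130713043 to 130887675). Other RNAs had trans contacts at the same places. In the chromosome 22 stretch with 2 Mb on each side, 241 RNAs had a trans contact, and ABL1, NUP214, MALAT1, LMAN1 and NEAT1 were among those that met more elements than SMYD3. For chromosome 9, with the same flanks, the number was 132 RNAs.

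The highest scores of SMYD3 RNA on any chromosome lay just before BCR. At the promoter of RSPH14 (23069665 to 23070763) it scored 2.66 in R320* and 2.75 in WT, and at an enhancer in that gene (23086576 to 23088793) 2.61 and 2.79. At a RAB36 enhancer (23156935 to 23157290) it scored 2.59 and 2.502, and at the BCR promoter shown above 2.41 and 2.14. At its own inner promoter the same RNA had 1.62 and 1.46. On chromosome 9 it had 2.22 and 2.61 at the AIF1L promoter and 2.09 and 1.49 at an ABL1 enhancer (130843738 to 130846794).

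Within the chromosome 22 stretch the genotypes differed in both directions. Over the 30 elements in both, 18 scored higher and 12 lower in R320*, with a median difference of 0.137 units (SD 0.497). The promoter of PPM1F, a phosphatase gene (21937801 to 21939044), had 1.23 in R320* and 2.37 in WT, the only SMYD3 connection lower by at least 1 unit, as was 0.0749% of the table. At TOP3B, a topoisomerase gene, a pair of enhancers had 1.39 and 2.21 (21991800 to 21993199) and 1.85 and 2.596 (21987619 to 21988603). The promoters of ZNF280B (22507317 to 22510479) and PPIL2 (21640175 to 21668156) went the other way, with 2.19 and 1.36 and with 2.10 and 1.36.

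**Figure D5:**
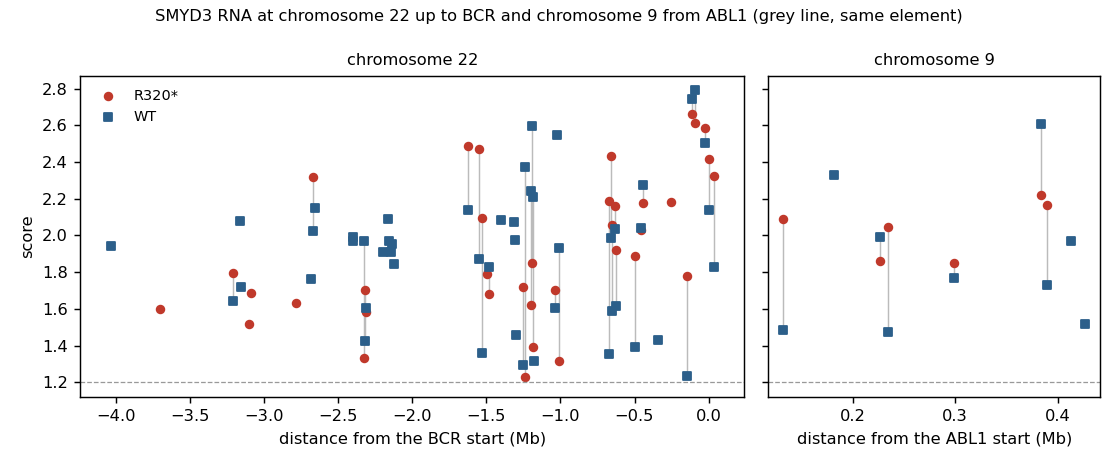
Score of SMYD3 RNA (y axis) at elements on chromosome 22 by distance from the BCR start (left, Mb) and on chromosome 9 by distance from the ABL1 start (right, Mb), in R320* (circles) and WT (squares). Grey lines join the scores of 1 element in both genotypes. Scores reach 2.66 in R320* and 2.79 in WT just before BCR, and the joined pairs differ in both directions.

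Outside these stretches SMYD3 RNA met 81 trans elements on 18 chromosomes, 36 in R320* and 45 in WT, and 0 were in both. The 0 follows from the stretches, which hold all its trans connections of both genotypes. Across all RNAs 11.5% of trans connections were in both. In WT these included the promoters of the nuclear noncoding RNAs MALAT1 (1.89) and NEAT1 (1.56), 3 elements at MIR17HG with up to 2.09, an ERBB2 promoter (1.63), TUBB2B with up to 1.76 and 7 elements on chromosome 4. In R320* they included LINC01578 on chromosome 15 (2.10), LINC00410 on 13 (2.07) and another MIR17HG enhancer (1.53). Further ones were AGPAT4 on 6 (2.08), PCLO on 7 (2.11), NR5A1 on 9 (1.88) and the bromodomain gene BRD2 on 6 (1.58). Merged within 1 Mb, all trans elements of SMYD3 formed 23 loci in R320* and 30 in WT, with 3 in common. Besides the stretches above, the locus in common ran from LINC00410 to MIR17HG (90748699 to 91369879), with 2 elements in R320* and 3 others in WT. Over all 81 the scores lay between 1.21 and 2.11 in R320* and between 1.23 and 2.09 in WT.

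HNRNPU and SMYD3 met 12 trans elements in common, and at 5 of these both were listed in the same genotype. All 5 lay on chromosome 22, at DGCR8 (2 elements), PPIL2, PPM1F and BCR. At the other 7, HNRNPU was listed in R320* only and SMYD3 in WT only: 3 at MIR17HG, 2 at P2RX6, the NOSTRIN enhancer and the CU633906.2 enhancer. The MIR17HG promoter (91345455 to 91352730) had 2.21 with HNRNPU in R320* and 1.501 with SMYD3 in WT. Of the 12, 11 met at least 19 trans RNAs each, NOSTRIN met 7, and the median over all elements with a trans contact was 1.

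By shared elements, the RNAs most like HNRNPU were DESI2 (Jaccard index 0.219, the elements of both over those of either), EFCAB2 (0.204) and KCNK1 (0.200). Those most like EFCAB2 were DESI2 (0.417), KCNK1 (0.376) and SDCCAG8 (0.328). All of these are genes of chromosome 1. SMYD3 was most like ABL1 (0.189, 75 shared elements) and NUP214 (0.179, 72) of chromosome 9, and then HNRNPU (0.157, 52).

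Of a list of 28 genes of distal chromosome 1, 9 were found as RNAs, 7 with more and 2 with fewer connections in R320*, and the median log2 ratio was 0.33, against 0.09 over all RNAs of both genotypes. Among 182 other RNAs of chromosome 1, 120 had more and 53 fewer, with a median of 0.12, so the direction of the neighbours was the common one on this chromosome. KIF26B had 26 in R320* and 7 in WT, DESI2 55 and 39, ADSS 34 and 23, OPN3 32 and 23, SDCCAG8 79 and 63 and AHCTF1 58 and 54. CNST, beyond SMYD3, had 23 and 32. KIF26B was the only member of the list with at least 2-fold more.

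Of 27 genes of heterogeneous nuclear ribonucleoproteins and nuclear matrix proteins, 12 were listed as RNAs. Of the 10 in both genotypes 7 had more and 3 fewer connections in R320*, with a median log2 ratio of 0.09 and 0 at 2-fold. HNRNPD had 31 and 19, HNRNPC 67 and 58, and SAFB, a scaffold attachment factor, 18 and 15, while HNRNPF was in R320* only (30) and PCBP2 in WT only (47). Trans connections were at most 2 per genotype in each of these 12 RNAs, against 43 and 11 for HNRNPU. Of 24 SMYD and lysine methyltransferase genes, 13 were listed. Of the 12 in both genotypes 5 had more and 7 fewer connections in R320*, with a median log2 ratio of -0.20 and 0 at 2-fold, KMT2C at 68 and 106, EZH2 at 73 and 97 and ASH1L at 96 and 85. Of 20 EF-hand and dynein regulatory genes, 0 were listed.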

How the data were processed

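The authors' deposited table holds 1 connection score per genotype for each RNA and element, and a difference that equals R320* minus WT in every row within 1e-05. Per the submitters' processing notes, cutadapt 1.12, BWA and bedtools were used with the hg38 build. The sources used here do not say how the score was made or how libraries were pooled. Element starts were taken to count from 0, as in BED files, and are printed as a genome browser shows them. Connections were counted by genotype, type and distance from the nearest end of the gene (RefSeq, GRCh38.p14) with Python 3.11.15, pandas 2.3.3, numpy 2.4.6 and scipy 1.17.1. Intervals are exact binomial and cover counting error only. Counting and merging code was tested on simulated data. With pooled values no test could be made. The members, lists and stretches were chosen with earlier results of these data known. Named elements were those met by all 3 RNAs, the farthest, the trans loci, and the 3 highest and 3 most different scores per RNA; the like RNAs were up to 3 of at least 10 connections with the highest Jaccard index. Other named elements were chosen after their values were seen. EFCAB2 was matched through its RefSeq synonym. Results at some loci are not reported here.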

Additional observations from a re-analysis of the deposited data

How the results depend on the processing

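Of 44 alternatives over 16 results, 34 left the value within its counting interval, its SD over connections or 1.5 times its size, and 0 turned a direction that was called. Spans and shared elements were judged in each genotype alone, so a changed order of the genotypes was not counted there. For the score differences the SD over connections was larger than the median itself, so staying within it is a weak check. The log2 ratio of connection numbers stayed between 0.85 and 1.35 for HNRNPU and between 0.68 and 1.13 for EFCAB2. The 2-fold mark was therefore not reached by HNRNPU on the same chromosome alone (0.86) or merged within 1 Mb (0.85), nor by EFCAB2 merged within 1 Mb (0.68, 8 loci in R320* and 5 in WT). For SMYD3 it lay between -0.16 and 0.49, 0.49 on the same chromosome alone. With a minimum score of 1.5, the elements met by all 3 RNAs were 6 in R320* and 6 in WT, in place of 21 and 12. The distance holding 90% of same-chromosome connections, in place of the farthest, was 17.9 Mb in R320* and 29.3 Mb in WT for HNRNPU, 15.5 and 11.5 Mb for EFCAB2, and 17.6 Mb in R320* for SMYD3. For HNRNPU this reversed the order of the genotypes, since its farthest contacts were at 228.8 Mb in R320* and 200.8 Mb in WT. With a minimum of 1.5 the farthest EFCAB2 and SMYD3 contacts in R320* were at 18.3 and 17.7 Mb. The EFCAB2 score difference was -0.162 when centred on the table's median and -0.109 under 1 Mb. No paired analysis was possible because the table is pooled by genotype, and for the same reason no library could be left out. Depth is unknown, so a connection that is not listed may lie just under the minimum.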

Other observations

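No connection of the 3 RNAs lay from 237737803 to 241517778 or from 241849996 to 244315136 of chromosome 1, although contacts were listed on both sides of each gap. The first gap, of 3.78 Mb, held 5 listed elements met by 7 RNAs. The second, of 2.47 Mb, held 18 listed elements met by 12 RNAs, among them the chromosome 1 neighbours ADSS, DESI2 and SDCCAG8. There were further gaps, among them that from 223235693 to 226181464 (2.95 Mb), with 75 listed elements met by 56 RNAs.

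The median score of EFCAB2 connections 10 to 20 Mb away was 2.11 in R320* and 2.37 in WT, and over all RNAs at that distance 1.45 and 1.41. Of the 38 HNRNPU connections at this distance 7.89% were in both genotypes, against 29.0% of 31 for EFCAB2, 48.5% of 66 for SMYD3 and 11.99% of 2694 over all RNAs.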
